A study of Mus musculus with 20 samples.

Results

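The skin of Grhl3 conditional knockout (cKO) mice was compared with that of Grhl3 wild-type (WT) mice in the imiquimod day 4 experiment, using all 8 arrays of that experiment out of 20 in the series. The members were chosen by their labels: 2 WT and 2 cKO arrays of unaffected areas, and 2 WT and 2 cKO arrays of injured areas. All 8 were labelled as dorsal epidermis of female C57B6 mice. Both genotypes carried the label Krt14cre, so a Cre driver active in basal keratinocytes and their descendants is named for WT and cKO alike. How the Grhl3 allele of either genotype was built, and the age of the mice, were not given in the sources used here. Shaved dorsal skin had received imiquimod cream, the epidermis was lifted with dispase, and total RNA was hybridised to Affymetrix Gene ST arrays. The injured areas were labelled as taken after 4 days; the labels of the unaffected areas gave no day of their own. The other 12 arrays were wax-stripped skin 4 days after injury and unaffected and injured areas in recovery from imiquimod at day 8. All 12 were from male mice, with 2 WT and 2 cKO arrays in each condition. Below, day 4 stands for the imiquimod day 4 experiment alone.

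Grhl3 is a transcription factor of the grainyhead-like family, made mainly in the suprabasal layers of the epidermis, and is known for its part in forming the skin barrier and in wound closure. Imiquimod activates Toll-like receptors, and repeated application to mouse skin is a common model of psoriasis, with thickening, scaling and infiltration by immune cells. Because the epidermis was profiled in bulk, fewer cells of a type and less RNA per cell cannot be told apart in any value given here.

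No gene is named, because the probe-set identifiers of the deposited table did not behave as labels of its values. Of 217 identifiers that the platform annotation gives to ribosomal protein genes, which nearly every cell expresses strongly, the median signal lay at percentile 54.5. The 1035 identifiers annotated to olfactory receptors, which are mostly silent in skin, had a median at percentile 52.2. Pairs of identifiers with 1 shared gene symbol had a median correlation of 0.0871 over the 20 arrays (777 pairs). The level of Grhl3 itself could therefore not be read as a check of the genotype labels, and neither keratinocyte markers nor those of other cell types could be examined. Results are given by probe set, and 4 identifiers are printed as the table has them.

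Genotype accounted for a modest share of the differences among the 8 arrays. After each area was centred on its own mean, 27.5% of the variance over all probe sets lay between genotypes in a way shared by both areas (1 degree of freedom), 11.9% was a genotype difference that was not the same in the areas (1 degree of freedom), and 60.6% lay between replicates (4 degrees of freedom). Along the leading component of the centred values, with 32.2% of the variance, the injured WT arrays lay at -21.6 and -9.08 and the injured cKO arrays at 12.9 and 17.7. The unaffected WT arrays lay at -3.07 and -17.9, and the unaffected cKO arrays at 27.6 and -6.65. The genotypes thus stood apart on this axis in the injured area, whereas the second unaffected cKO array lay between the 2 unaffected WT arrays. Replicates of 1 group correlated at 0.978 to 0.990 over probe sets.

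With both areas together and area as a covariate, 2 of 26310 probe sets differed between the 4 cKO and the 4 WT arrays (limma with Benjamini-Hochberg adjustment, adjusted p under 0.05), which is 0.0076% of those tested. Both were lower in cKO, and none was higher. The difference held in both areas for each: every cKO array was below every WT array in unaffected and in injured skin. Without adjustment, 3728 probe sets (14.2%) had p under 0.05, 1700 higher and 2028 lower in cKO. The median difference over all probe sets was 0.01 on the log2(intensity + 16) scale, the scale of every difference given here. On this scale the change of a dim probe set is understated.

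The larger of these falls was probe set 10501315. In unaffected skin its intensity was 1331 and 918 in the WT arrays and 25.2 and 7.26 in the cKO arrays. In injured skin it was 892 and 1509.7 in WT and 11.9 and 0.00425 in cKO. Among the probe sets tested, the mean of the 4 WT arrays lay at percentile 84.9. In the mean of the 4 cKO arrays none of those tested was lower. A filter on mean signal over all 20 arrays had first removed the dimmest probe sets, so this lowest rank depends on the filter. A removed probe set, described below, stood at 1.87 and 0.00705 in unaffected and 4.25 and 0.0254 in injured cKO skin. The log2 difference of 10501315 was -5.49 ± 0.28 (SE, 4 against 4 arrays), with an adjusted p of 0.0011 in limma. Taken alone, the unaffected area gave -5.18 ± 0.40 (SE, limma adjusted p = 0.0176) and the injured area -5.80 ± 0.40 (SE, limma adjusted p = 0.0319). The test of the difference between areas gave an unadjusted p of 0.304 in limma.

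The second was probe set 10502714, with 623 and 472 in unaffected WT skin and 13.5 and 3.10 in unaffected cKO skin. In injured skin it stood at 439.8 and 715 in WT and at 14.7 and 35.1 in cKO. The lowest WT array was again far above the highest cKO array. The log2 difference over both areas was -4.21 ± 0.26 (SE, limma adjusted p = 0.00193). The unaffected area alone gave -4.56 ± 0.34 (SE, limma adjusted p = 0.0176), and the injured area alone -3.87 ± 0.34 (SE), which did not pass (limma adjusted p = 0.0573). Both calls were lost with a pseudocount of 1 in place of 16, although the log2 differences were then wider, at -7.28 and -5.35 (limma adjusted p = 0.138 and 0.0754), a scale on which the cKO intensities near 0 spread widely. In case both areas of a number came from 1 mouse, which the labels do not say, the areas were averaged to 2 against 2, and the first probe set, still at -5.49, then had a limma adjusted p of 0.0773 while the second still passed.

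These 2 probe sets followed each other closely over all 20 arrays, with r = 0.984 on the log2 scale (0.997 within the 10 WT arrays and 0.970 within the 10 cKO arrays). The values of the first stand under 1 further identifier of the table, identical in every array, which was left out as a repeat. Among the distinct probe sets tested, no other correlated with the first at over 0.9, the next being at 0.837. Likeness of this kind is a description over arrays that share conditions and genotypes, and says nothing of shared control.

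Outside the day 4 experiment every cKO array was also below both WT arrays of its own condition for both probe sets, but by less even amounts. Probe set 10501315 measured 2866 and 3349 in wax-stripped WT skin and 500.1 and 1527 in wax-stripped cKO skin. In unaffected recovery skin it measured 2922 and 5220.5 in WT and 336 and 1998 in cKO, and in injured recovery skin 1428 and 1237 in WT and 52.6 and 1184 in cKO. The second cKO array of each of these conditions was thus several times the first, and in injured recovery skin it was close to the WT arrays. Probe set 10502714 showed the same order, with 33.1 and 523 in the injured recovery cKO arrays against 717 and 584 in WT. Set against the WT arrays of all conditions together, whose levels differed, 7 of 10 cKO arrays were below all 10 WT arrays for each of them. Their gap between the injured recovery cKO replicates was 4.13 and 3.46 on the log2 scale, and only 0.0038% and 0.0076% of probe sets had a wider gap between these arrays. Averaged over the 3 other conditions, the cKO minus WT difference was -2.08 ± 0.69 and -1.93 ± 0.58 (SE, limma adjusted p = 0.259 and 0.206). With each of the 12 arrays left out in turn, these ranged from -2.77 to -1.40 and from -2.50 to -1.35. They were widest without the second injured recovery cKO array. The day 4 difference was larger by -3.41 and -2.29, which did not pass over all probe sets (limma adjusted p = 0.299 and 0.349).

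**Figure D1:**
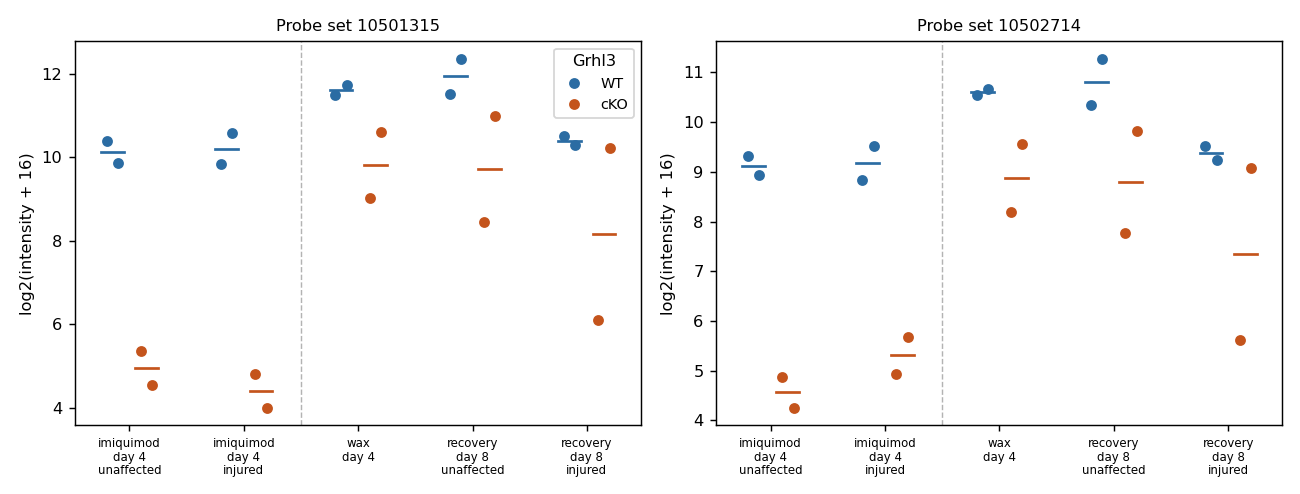
Intensity of the 2 probe sets that differed between genotypes on day 4, in all 20 arrays by condition and genotype. Points are arrays and bars are means on the log2 scale. The 4 imiquimod day 4 cKO arrays lie at 35.1 or below in both, while the other cKO arrays reach 1998 and 893.

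The probe set just outside the threshold was higher in cKO. Probe set 10526502 measured 95.1 and 77.3 in unaffected WT skin and 201 and 173 in unaffected cKO skin, then 133 and 148 in injured WT skin and 363 and 432 in injured cKO skin. No cKO array overlapped the WT arrays in either area. Its log2 difference was +1.19 ± 0.12 (SE), with a limma adjusted p of 0.0538. In the 12 other arrays, which this comparison did not use, it was higher in cKO as well, by +1.05 ± 0.10 (SE, limma adjusted p = 0.00193). Wax-stripped skin, at 76.6 and 59.5 in WT and 348 and 253 in cKO, had the widest gap. The mean cKO intensity was 4.41 times that of WT there, 1.56 times in unaffected recovery skin and 1.62 times in injured recovery skin.

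In the unaffected area alone, 5 probe sets passed (0.019% of those tested in limma at adjusted p under 0.05), 3 lower and 2 higher in cKO. They comprise both probe sets above, a further fall and a pair of rises. The further fall measured 442 and 846 in WT against 32.2 and 25.1 in cKO (log2 difference -3.82 ± 0.28 SE, limma adjusted p = 0.0176). In injured skin it was lower too, at 145 and 182 in WT against 31.4 and 28.3 in cKO, but this difference did not pass. Elsewhere its differences went in opposite directions, at -0.82 in unaffected recovery and +1.76 in injured recovery skin, while wax-stripped skin measured 119 and 146 for WT and 24.1 and 120.3 for cKO.

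Both rises passed in unaffected skin, and neither passed in injured skin. Probe set 10389207 measured 526 and 328 in unaffected WT skin and 3021 and 2582 in unaffected cKO skin, a log2 difference of +2.70 ± 0.22 (SE, limma adjusted p = 0.0203). In injured skin it measured 194 and 220.0 in WT and 206 and 169.7 in cKO, and those arrays overlapped. The second rise went from 664 and 557 in unaffected WT to 2296 and 2219 in unaffected cKO (+1.86 ± 0.13 SE, limma adjusted p = 0.0176), against 551 and 487 and then 581 and 678 in injured skin. The difference between areas was -2.84 and -1.59, with unadjusted p of 2.97e-05 and 4.81e-05, but neither passed over all probe sets (limma adjusted p = 0.633 for both). Leaving out either unaffected cKO array, or either injured WT array, left none of the 5 calls of the unaffected area past the threshold. Their limma adjusted p values then lay between 0.0580 and 0.169. Without the first unaffected WT array both probe sets of the first pair were lost here (limma adjusted p = 0.0713), and without either injured cKO array the further fall and 10389207 were (0.0576 and 0.0708).

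In the injured area alone, 1 probe set passed (0.0038%), the fall in 10501315 given above, and leaving out any array other than an unaffected WT one ended that call. Without adjustment, 1757 probe sets (6.68%) had p under 0.05 in the unaffected area and 1792 (6.81%) in the injured area. The test of genotype by area called 0 probe sets in limma, with 703 (2.67%) at an unadjusted p under 0.05. No probe set was therefore shown to respond to genotype in 1 area and not in the other.

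Differences of any size that left the genotypes without overlap in both areas were also counted, and other than the 2 falls none of them passed over both areas. The cKO arrays lay wholly to 1 side of the WT arrays in unaffected skin for 8711 probe sets (33.1%; 16.3% higher and 16.8% lower) and in injured skin for 12621 (48%; 26.1% higher and 21.9% lower). They did so in both areas and in the same direction for 3504 (13.3%), of which 1772 were higher (6.74%) and 1732 lower (6.58%) in cKO. Their median differences were +0.20 and -0.23. With 2 arrays against 2 in an area, such separation is frequent without any genotype difference. These counts carry no test, and no genotype effect is read from them. A difference of at least 1.5-fold was reached by 99 of the 3504, 57 higher and 42 lower, and at least 2-fold by 22, 11 in each direction. Over all probe sets the differences in the areas correlated at r = 0.400 (Spearman rho = 0.436) across probe sets; these share arrays and are no replicates of a condition.

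**Figure D2:**
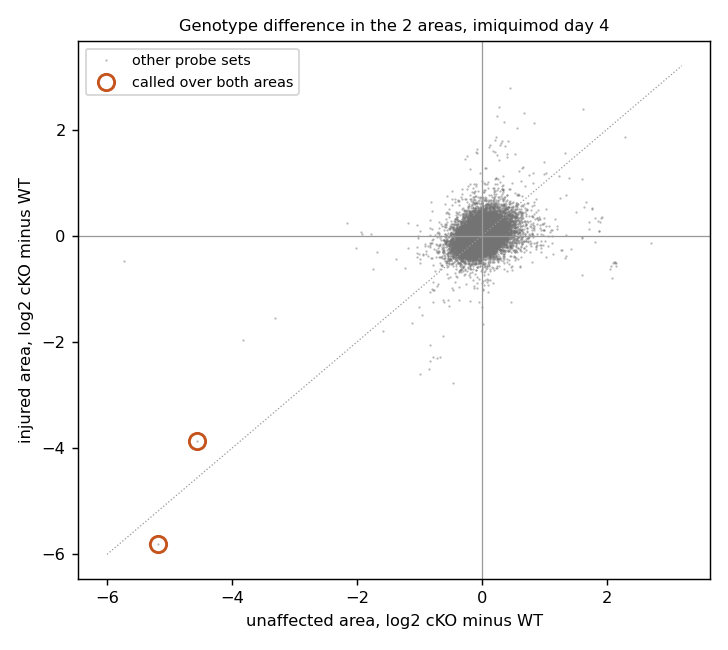
cKO minus WT difference of each of 26310 probe sets in unaffected skin (horizontal axis) and injured skin (vertical axis), as log2(intensity + 16). The 2 circled probe sets passed over both areas and lie far from the rest, at -5.18 and -4.56 in unaffected and -5.80 and -3.87 in injured skin.

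Probe sets chosen in 1 area were then read in the arrays of the other area. Of 196 that were at least 1.5-fold higher in cKO in unaffected skin with an unadjusted p under 0.05, 128 (65.3%) were higher in injured skin too, where 54.2% of all probe sets were. Of 90 chosen as lower, 75 (83.3%) were lower in injured skin, against 45.8% of all. In the reverse order, 131 of 177 chosen as higher in injured skin (74%, against 48.2% of all) and 68 of 93 chosen as lower (73.1%, against 51.8% of all) kept their sign in unaffected skin. The median difference in the second area was +0.11 and -0.29 for the first choice and +0.20 and -0.27 for the reverse, all smaller than where they were chosen.

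The largest difference higher in cKO with no overlap in either area came from a probe set that was nearly dark in WT. It measured 5.76 and 0.340 in unaffected WT, 114 and 49.3 in unaffected cKO, 4.14 and 0.00651 in injured WT and 56.0 and 42.5 in injured cKO (+2.07 ± 0.22 SE, limma adjusted p = 0.0895). Elsewhere its WT arrays ranged widely, with 14.5 and 4068 in unaffected recovery skin and 1014 and 1216 in wax-stripped skin, while its cKO arrays stayed between 86.4 and 209. The direction of day 4 was therefore not that of wax-stripped skin.

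Of the 22 probe sets with no overlap in both areas and at least a 2-fold difference, the 20 that did not pass had limma adjusted p of 0.0538 to 0.432. In the mean of the other conditions, 3 of the 11 higher ones were higher in cKO, where 57.6% of all probe sets higher on day 4 were. Of the 11 lower ones, 9 were lower, against 52.1% of all probe sets lower on day 4. There 4 passed with the sign of day 4, where 1% of all probe sets passed in either direction. A pair of the lower ones that moved together was among these 4. One of the pair measured 522 and 482 in unaffected WT, 296 and 211 in unaffected cKO, 675 and 413 in injured WT and 237 and 133 in injured cKO (-1.22 ± 0.23 SE, limma adjusted p = 0.285), and differed by -1.13 elsewhere (limma adjusted p = 0.000532). A higher one measured 278 and 507 in unaffected WT and 1176 and 802 in unaffected cKO. In injured skin it measured 448 and 319 in WT and 1592 and 825 in cKO (+1.45 ± 0.26 SE over both areas, limma adjusted p = 0.285). Its genotypes overlapped in each of the other conditions. Mean cKO intensity was 0.68 times that of WT in wax-stripped, 0.87 times in unaffected recovery and 0.68 times in injured recovery skin. In some of the 22 a single WT array stood far above its replicate. One measured 19021 and 508 in unaffected WT against 42.8 and 44.9 in cKO, but 51.5 and 98.4 against 47.8 and 46.6 in injured skin (-3.10 ± 1.30 SE, limma adjusted p = 0.344). Another measured 2784 and 265 in unaffected WT against 111 and 46.8 in cKO, and 43.1 and 62.5 against 8.31 and 6.11 in injured skin (-2.43 ± 0.69 SE, limma adjusted p = 0.298).

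A further 3 falls, in dim probe sets that the signal filter had removed, passed when all 35080 distinct probe sets were tested. The first measured 103 and 132 in unaffected WT and 85.4 and 97.7 in injured WT, against 1.87 and 0.00705 in unaffected cKO and 4.25 and 0.0254 in injured cKO (-2.77 ± 0.13 SE, limma adjusted p = 0.000660). The second measured 65.6 and 61.1, and 98.6 and 145, in the WT arrays of the areas, against 5.52 and 2.39, and 6.95 and 5.19, in cKO (-2.31 ± 0.16 SE, limma adjusted p = 0.00379). The third measured 54.8 and 50.6, and 38.0 and 72.3, in WT, against 4.42 and 8.59, and 6.74 and 10.1, in cKO (-1.56 ± 0.15 SE, limma adjusted p = 0.0435). All 4 cKO arrays of day 4 were thus below all 4 WT arrays in each. In the other conditions the cKO arrays were not low, lying between 37.5 and 277, whereas the first WT array of unaffected recovery skin was, at 5.05, 1.96 and 3.32.

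**Figure D3:**
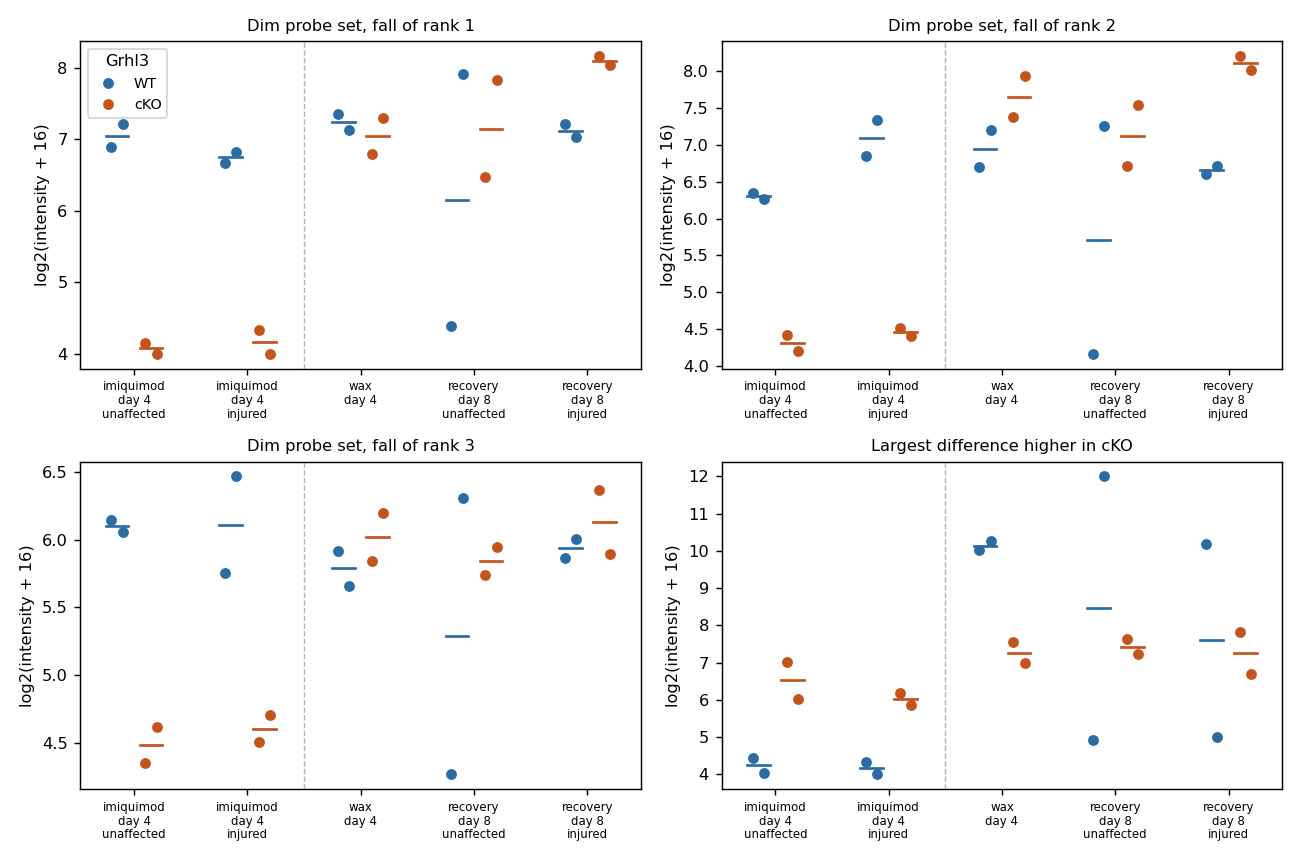
Intensity in all 20 arrays of the 3 dim probe sets that fell in cKO on day 4 and of the probe set with the largest difference higher in cKO. Points are arrays and bars means on the log2 scale; in the dim falls, 1 WT array of unaffected recovery skin lies as low as the day 4 cKO arrays.

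A difference of at least 2-fold in 1 area or the other was reached by 163 probe sets, and 5 of these passed in limma in an area or over both. In unaffected skin 85 reached it, 60 higher and 25 lower, in injured skin 91, 55 higher and 36 lower, and 13 did so in both areas in the same direction. Many moved together over the 20 arrays: joined where their log2 values correlated at over 0.95, 51 of them fell into 5 groups of at least 4. The groups were formed after the values were seen and carry no test, and no member of any passed in limma with the 8 arrays, over both areas, in an area or by area.

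The first group held 18 probe sets whose mean signal was lower in injured than in unaffected skin of both genotypes. The mean intensity was 2182 and 1768 in unaffected WT skin and 425 and 145 in injured WT skin. In cKO it was 2689 and 2225 in unaffected skin and 1069 and 645 in injured skin. The injured cKO arrays were thus above the injured WT arrays, with a median difference of +1.71 (+0.28 in unaffected skin), and below the unaffected arrays of either genotype. The other conditions gave -0.29. One member, among the 47 described next, measured 44.4 and 23.8 in injured WT and 187 and 139 in injured cKO, against 3861 and 3114 and then 4492 and 3648 in unaffected skin.

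Another group, of 8, went the opposite way in injured skin. Its mean intensity was 1893 and 1517 in injured WT, above the 287 and 539 of unaffected WT. In cKO it was 190.2 and 544 in injured skin and 156 and 308 in unaffected skin, so that the injured WT arrays stood apart from the other 6 of the experiment. Its median difference was -2.30 in injured and -0.81 in unaffected skin.

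A group of 9, on adjacent rows of the table, was higher in unaffected cKO skin, at 424 and 857 against 88.8 and 182 in WT, and lower in injured cKO skin, at 30.3 and 20.6 against 38.9 and 51.4. Its median differences were +2.12 and -0.51, and the unadjusted limma p of the difference between areas was 0.00108 to 0.00182 and did not pass over all probe sets. A group of 8 measured 567 and 111 in unaffected WT and 899 and 998 in unaffected cKO skin, so that 1 WT array lay far below the other 3. The last group, also of 8, was bright in injured skin of both genotypes, at 4645 and 4899 in WT and 6607 and 5252 in cKO, and its median differences were +0.97 in unaffected and +0.60 in injured skin.

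When the spread was estimated from all 20 arrays, the same day 4 contrast yielded 47 calls (0.179%), with cKO above WT in 23 (0.0874%) and below WT in 24 (0.0912%), the 2 falls above among them. This list is therefore the result of another estimate of the error and not of other day 4 values. Of the 47, 39 (83%) had cKO arrays wholly to 1 side of WT in both areas, where 13.3% of all probe sets did; the list was called on this contrast, so nothing is read from that share. A total of 35 had the larger difference in injured skin. At least 2-fold was reached by 5 in unaffected and 13 in injured skin. The median difference was +0.55 among the higher and -0.61 among the lower.

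The larger differences among the 47 included several of injured skin. One measured 1038 and 912 in injured WT and 5179 and 4635 in injured cKO, while unaffected skin gave 108 and 69.3 in WT and 173 and 126 in cKO (+1.49 over both areas, limma adjusted p = 0.0375 with all 20 arrays). Another measured 3038 and 3234 in injured WT and 9545 and 9019.6 in injured cKO, with 1829.9 and 1306 in unaffected WT and 1459 and 1456 in unaffected cKO (+0.74, limma adjusted p = 0.0140 with all 20 arrays). Both genotypes were thus higher in injured skin, and cKO more so. By contrast, 1 probe set was lower in cKO in both areas, one of 4 that moved together, with 927 and 906 in injured WT, 484 and 402 in injured cKO, 485 and 659 in unaffected WT and 390.4 and 268 in unaffected cKO (-0.90, limma adjusted p = 0.0142 with all 20 arrays).

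**Figure D4:**
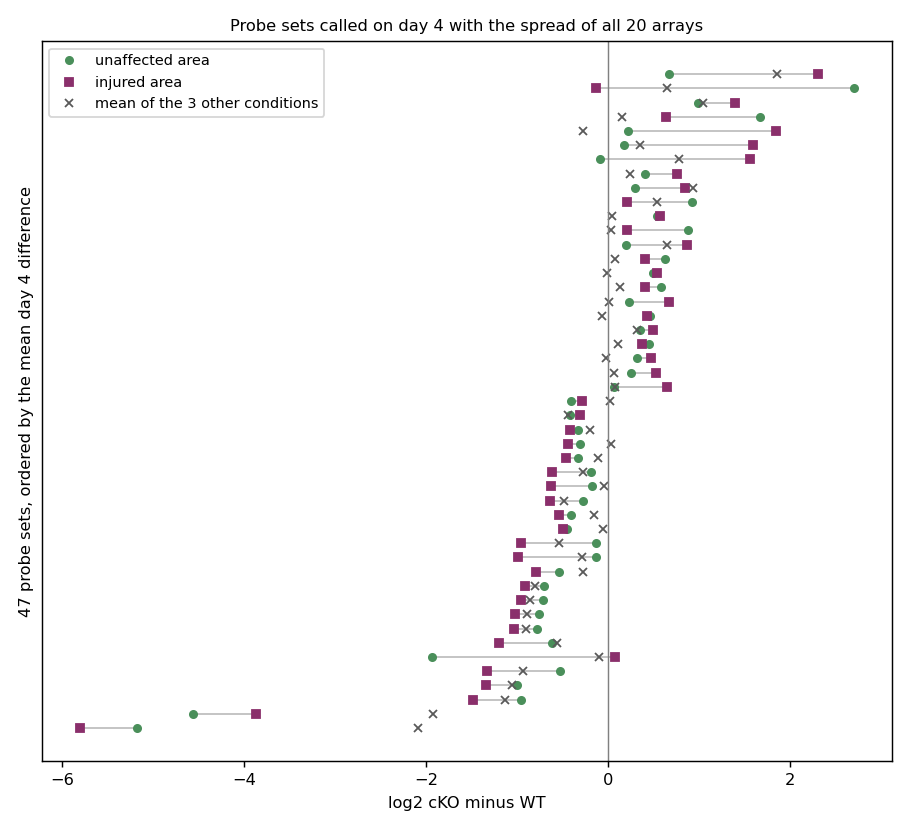
cKO minus WT difference (log2) of the 47 probe sets called with the spread of all 20 arrays, in order of the day 4 difference, with dots for unaffected skin, squares for injured skin and crosses for the mean of the 3 other conditions. The crosses lie on the same side of 0 as day 4 for 22 of 24 lower and 19 of 23 higher probe sets.

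The other 12 arrays were then read for these lists. The mean difference over the 3 other conditions had the sign of day 4 for 22 of the 24 lower probe sets (91.7%, against 52.1% of all probe sets lower on day 4) and for 19 of the 23 higher ones (82.6%, against 57.6%). The 47 were called with a spread estimated partly from these 12 arrays, so this is no independent reading of them. Of the lower and the higher, 12 and 7 passed in limma in the other conditions, where 263 probe sets (1%) passed in all, 160 higher (0.608%) and 103 lower (0.391%). The sign of day 4 was best kept in injured recovery skin. There 79.7% of the higher and 79.7% of the lower probe sets of the 3504 kept their sign, against 69.9% and 65.9% of all probe sets. In wax-stripped skin 51% and 32.4% did, against 45.2% and 40.7%, and in unaffected recovery skin 47.9% and 39.1%, against 45.2% and 43.1%. Read the other way, 226 of the 263 (85.9%, against 55% of all) had the same sign on day 4, and 59 of them (22.4%, against 13.3% of all) had no overlap in both day 4 areas, while 0 passed in limma on the 8 arrays.

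The difference between the day 4 genotype contrast and that of the other conditions was tested over all 20 arrays, and 3 probe sets passed (0.0114%), with 3091 (11.7%) at an unadjusted limma p under 0.05. In all 3, cKO was higher on average over the other conditions and did not pass on day 4. The day 4 mice were female and the others male, so sex and experiment cannot be told apart here. The recovery arrays were also of a later day, day 8. The first measured 366 and 367 in wax-stripped WT and 1468 and 1417 in wax-stripped cKO, against 971 and 888 in unaffected WT, 661 and 850.0 in unaffected cKO, 2469 and 1949 in injured WT and 1870.2 and 1928 in injured cKO on day 4. Its day 4 difference was -0.25 and that of the other conditions +0.75. The second was higher in cKO in wax-stripped and injured recovery skin, the latter at 438 and 402 in WT and 1519.6 and 1289.8 in cKO, while injured day 4 skin was at 2301 and 2887 in WT and 2639 and 2583 in cKO. The third was between 12.2 and 29.1 in unaffected day 4 skin and at 6967 to 7891 in injured day 4 skin of both genotypes, and in wax-stripped skin it measured 18.7 and 13.5 in WT and 786 and 936 in cKO. In recovery skin its WT and cKO arrays overlapped in both areas.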

How the data were processed

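Total RNA of 20 epidermis samples was measured on Affymetrix Gene ST arrays. The deposited table holds 1 intensity per probe set and array on a linear scale. Affymetrix Expression Console and PLIER are named for it, per the submitters' processing notes, and their versions are not stated in the labels. The number of arrays limits the precision. Median intensity was 171 to 202 per array.

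The 8 day 4 arrays and the other 12 were grouped by their labels. Of 35556 probe sets, 476 with values identical to an earlier one in every array were left out. The 26310 of the 35080 distinct ones at or above percentile 25 of mean signal were tested as log2(intensity + 16) with limma 3.58.1 in R 4.3.3 (lmFit, eBayes, Benjamini-Hochberg threshold 0.05). The model for both areas had area and genotype as terms (5 residual degrees of freedom). Each area and the difference between areas used group means (4 degrees of freedom), the 3 other conditions used their own 12 arrays, and the comparison with them used all 20 arrays (10 degrees of freedom). The fits over both areas, in each area, by area, in the other conditions and with the spread of all 20 arrays were tried on simulated data. The comparison of day 4 with the other conditions, the overlap counts and the groups by likeness were not.

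By the rule, the probe sets described were those called over both areas that held in both (up to 12 in each direction, of which there were 2 in all) and those called in an area. Others, such as those just outside the threshold, those at least 2-fold apart without overlap, the groups by likeness and the examples among the 47, were chosen after their values were seen. At most 2 identifiers are printed for rises and 2 for falls. Gene and marker lists were not used, since identifiers could not be tied to values. The comparison and these lists were chosen with earlier results of these data known.

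Replicates were labelled as biological, but the labels do not say whether both areas of a number came from 1 mouse. Deviations of arrays with the same number correlated at -0.180 to 0.286 between groups, so the numbers were not used to pair arrays. Alternatives covered the pseudocount, quantile normalization, the filter, the variance model, the block, and each array left out.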

Additional observations from a re-analysis of the deposited data

Results flagged for a closer look

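The genotype difference on day 4 differed from that of the other conditions, by a test of the difference itself, in 3 probe sets (limma over 20 arrays). In the first, cKO minus WT was -0.25 ± 0.09 on day 4 and +0.75 ± 0.05 elsewhere (SE), a difference of -1.01 (limma adjusted p = 0.00836). It was +1.93 in wax-stripped, -0.11 in unaffected recovery and +0.43 in injured recovery skin. In the second it was -0.28 on day 4 and +0.99 elsewhere, a difference of -1.27 (limma adjusted p = 0.00835), with +1.06 in wax-stripped, +0.21 in unaffected recovery and +1.70 in injured recovery skin. Without the injured recovery arrays the second became -0.91 and did not pass (limma adjusted p = 0.105). In the third it was +0.20 on day 4 and +1.69 elsewhere, a difference of -1.49 (limma adjusted p = 0.0271), and wax-stripped skin alone gave +4.77. The third had mean intensities of 26.9 in WT and 26.2 in cKO in unaffected recovery skin. In injured recovery skin they were 2787 and 3385, so its difference elsewhere lay mainly in wax-stripped skin. The call of the third was lost in 11 of 28 alternatives. Sex was female on day 4 and male elsewhere in these arrays, and its part in these differences cannot be told apart from that of the experiment.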

How the results depend on the processing

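The fits rest on 2 arrays a group, and detection calls were not used, so intensities near 0 have no known order. No direction reversed in any alternative run among the probe sets followed there. These were the ones called over both areas or in an area, 10526502, and the 3 flagged above. Directions of the other probe sets described were not followed. The counts given next are of probe sets past the threshold. Over both areas (2, both holding in both areas) they became 0 and 0 with a pseudocount of 1, 6 and 6 without the filter, 4 and 4 with trended and robust variances, 47 with the spread of all 20 arrays, 1 with the areas averaged, and 8 with identical probe sets kept (chosen after seeing the data). Leaving out 1 array gave 2 to 3 for both. In the unaffected area (5) they became 2 with a pseudocount of 1 and 2 with all 20 arrays, and 0 to 16 with 1 array left out. In the injured area (1) they became 0 with a pseudocount of 1, 7 with 64, 2 after quantile normalization, 3 without the filter, 4 with the filter at percentile 50, 7 with trended and robust variances, 36 with all 20 arrays, and 0 to 4 with 1 array left out. By area (0) they became 1 with all 20 arrays and 0 to 4 with 1 array left out. In the other conditions (263) they became 50 without the injured recovery arrays and 114 to 352 with 1 array left out. For day 4 minus the other conditions (3) they became 5 with trended and robust variances, 6 without the injured recovery arrays, and 2 to 21 with 1 array left out. The causes were not tested. With the replicate number as a block, 3 passed over both areas, 7 in the unaffected area, 3 in the injured area and 0 by area. In the same setting 225 passed in the other conditions and 3 for the difference. The labels do not say whether the numbers pair the arrays. With labelled replicate as a random block (consensus correlation -0.183) 3 passed over both areas, and 3 with the injured WT numbers exchanged, which was chosen after seeing the data. Probe set 10526502, just outside the threshold, passed in 7 alternatives.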
